A study of Mus musculus with 16 samples.

Results

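Mouse macrophages grown from stem cells were given heme bound to albumin at 50 µM or at 200 µM for 8 h, and the transcripts that differed between these doses were compared across 12759 genes. The comparison rests on 8 of the 16 microarrays of the series, the 4 replicates titled HemeAlb200 and the 4 titled HemeAlb50, lettered a to d in both groups. A further 4 arrays of untreated cells at 0 h served as the control for the change that each dose had made, and the remaining 4 arrays, of cells given lipopolysaccharide (LPS) at 10 ng/mL for 8 h, entered only the estimate of the spread. The labels call the cells murine stem cell derived macrophages and give no strain, stem cell line or sex. The series title asks whether heme triggers inflammation, and the pair of doses shows which responses still grow over a 4-fold step in heme and which change little. Every array carried the sample in red (Cy5) and an untreated reference RNA in green (Cy3), and all values below are log2 ratios of red to green or differences of such ratios. The 2 doses had equal incubation times, whereas treatment and time cannot be told apart in any comparison of a dose with the 0 h control.

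Heme is the iron-holding group of hemoglobin, and macrophages take it up when they clear red cells. Heme oxygenase 1 (Hmox1) opens the heme ring and frees its iron, ferritin stores the iron, and ferroportin (Slc40a1) exports it. Heme also relieves repression by BACH1, which shares DNA sites with the antioxidant factor NRF2. Heme is known to induce Spic, a transcription factor that red pulp macrophages need to recycle iron. Iron regulatory proteins act on transferrin receptor (Tfrc) mRNA, which becomes unstable when iron is plentiful.

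The bulk of the genes differed little between the doses, and those that did mostly rose. A gene is termed called where its adjusted p was below 0.05 and it differed 2-fold or more. By that rule 106 genes (0.831 percent) differed between 200 and 50 µM, 81 higher (0.635 percent) and 25 lower (0.196 percent) at the higher dose. With no minimum size, 971 genes (7.61 percent) passed an adjusted p of 0.05, 536 higher (4.2 percent) and 435 lower (3.41 percent). All p-values are from limma with Benjamini-Hochberg adjustment over 12759 genes. The 106 called genes had ratios in which the 4 arrays of one dose did not overlap the 4 of the other, as did 2746 genes (21.5 percent) of all tested, and the smallest p that an exact test of 4 against 4 can give is 0.0286. All 106 were also called at 200 µM against the control in the same direction, and 22 of them were called at 50 µM as well. At least 4-fold higher were 10 genes, and 1, thrombospondin 1 (Thbs1), was at least 4-fold lower. None of the 10 kept its call with another background correction (normexp), whereas Thbs1 did. Of the 106, 76 were well above background on all 12 arrays of the control and both doses. Of all 12759 genes 11547 were, a larger share than among the called genes. Agilent's quality check marked 2 HemeAlb200, 1 HemeAlb50 and 3 control arrays for evaluation, and without the marked arrays of all groups 31 genes were called between the doses. That refit kept control b alone, HemeAlb50 a to c, and HemeAlb200 b and c. With normexp, which added an offset of 50 to both colours, the number called also fell to 31, 30 of them among the 106.

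Macrophage transcripts were present throughout, since 9 of 10 defining macrophage markers were measured and all 9 were well above background on all 12 arrays. Markers of other cell types were measured in part, with 5 of 11 listed lymphocyte markers, 6 of 12 neutrophil, 7 of 12 embryonic stem cell, 5 of 15 erythroid and megakaryocyte and 6 of 11 stromal markers passing the signal filter. Summed red intensities at 50 and at 200 µM ran from 8340 to 10300 and from 7310 to 8720 for the lymphocyte markers, from 15200 to 28500 and from 16400 to 29400 for the neutrophil markers, and from 25700 to 30600 and from 27500 to 32400 for the erythroid and megakaryocyte markers, and the doses overlapped in all 3. The lymphocyte markers Ms4a1 and Cd3g, the neutrophil markers Ly6g and Ltf, and the stem cell markers Pou5f1 and Sox2 did not pass the signal filter. Well above background on all 12 arrays were all 5 measured lymphocyte markers, among them Cd3e, and all 6 neutrophil markers, among them S100a8. The same held for 6 of the 7 stem cell markers, among them Nanog. In RNA from whole cultures, fewer cells of a type and less RNA per cell cannot be told apart.

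Promoters are shown here for 4 NRF2 targets and for Spic. Gclm, Gsta3 and Prdx1 were chosen because they hold the letters searched for before their start, and Slc7a11, the NRF2 target with the largest step, and Spic, no listed NRF2 target, as promoters that do not. The stretches are the 150 bases before the transcription start, from RefSeq, build GRCm38.p6, each written 5′ to 3′ on the gene's own strand. Capitals mark a match to TGACNNNGC, the core letters of the antioxidant response element to which NRF2 and BACH1 bind, on either strand. Gclm lies at chr3:122245407-122245556 (+), Gsta3 at chr1:21240435-21240584 (+), Prdx1 at chr4:116685449-116685598 (+), Slc7a11 at chr3:50443614-50443763 (-) and Spic at chr10:88683024-88683173 (-).
Gclm: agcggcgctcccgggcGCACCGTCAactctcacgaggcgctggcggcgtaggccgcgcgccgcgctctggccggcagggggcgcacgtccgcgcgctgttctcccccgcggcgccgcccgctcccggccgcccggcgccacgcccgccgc
Gsta3: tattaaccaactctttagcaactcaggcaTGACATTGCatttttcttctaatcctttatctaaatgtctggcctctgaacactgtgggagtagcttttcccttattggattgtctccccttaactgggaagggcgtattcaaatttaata
Prdx1: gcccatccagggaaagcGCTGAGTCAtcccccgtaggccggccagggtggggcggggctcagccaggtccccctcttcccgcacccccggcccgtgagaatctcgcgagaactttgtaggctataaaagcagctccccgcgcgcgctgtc
Slc7a11: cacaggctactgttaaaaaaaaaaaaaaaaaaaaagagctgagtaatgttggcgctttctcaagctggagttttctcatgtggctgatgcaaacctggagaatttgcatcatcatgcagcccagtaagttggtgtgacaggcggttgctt
Spic: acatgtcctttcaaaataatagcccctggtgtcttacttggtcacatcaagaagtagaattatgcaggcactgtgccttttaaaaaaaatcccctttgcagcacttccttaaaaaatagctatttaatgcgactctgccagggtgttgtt
The match began 134 bases before the start in Gclm, 121 in Gsta3 and 133 in Prdx1, and Slc7a11 and Spic had none in these 150 bases or in the 250 bases before their start. Of the other NRF2 targets looked at singly, Nqo1 had no match, Srxn1 had its match 28 bases after the start, and Txnrd1 had a match in 1 of 3 windows, 92 bases before that start. In the 250 bases before the start, a match on either strand was found in 11 of 41 windows (26.8 percent) of the 32 measured NRF2 targets with a window. The same letters were in 3338 of 32851 windows (10.2 percent) of all genes, in 11.6 percent of windows of the genes tested, and in 18 of 106 windows (17 percent) of 81 genes called between the doses. A match is a run of letters, not a measured site. The windows of Hmox1 and Slc40a1 were not analysed here.

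Among the genes of heme and iron handling, the regulator Spic, haptoglobin and the exporter ferroportin rose by 2-fold or more from 50 to 200 µM, and heme oxygenase 1 rose by less than 2-fold. Of 41 measured members of the list, 3 were called higher (Spic, Hp and Slc40a1) and none lower, beside 0.635 and 0.196 percent of all genes, and the median difference between the doses was 0.06, beside -0.01 for all genes. With normexp 1 of the 41 was called. Spic had log2 ratios of 3.20, 2.89, 2.95 and 3.71 on arrays a to d at 50 µM and of 5.79, 5.69, 5.69 and 5.68 at 200 µM, with controls from -0.24 to 0.07. The groups were far apart, and the 200 µM arrays lay close together (SD 0.053, beside 0.38 at 50 µM). The difference was 2.52 ± 0.21 (SE, n = 4 per group; limma adjusted p = 4.09e-06), a further 5.75-fold rise. With the normexp background correction it was 1.25 and no longer called.

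Slc40a1, the only known cellular iron exporter, had log2 ratios of 3.29, 2.65, 3.06 and 3.23 at 50 µM and of 3.95, 4.31 and 4.61 on arrays b, c and d at 200 µM. Its spot on 200 µM array a was an outlier and was left out. The difference of 1.23 ± 0.30 (SE, n = 4 and 3; limma adjusted p = 0.0234) was called, although from the red channel alone it was 0.52 and not called, and it also lost the call when HemeAlb50 b or c, or HemeAlb200 c or d, was left out. Haptoglobin (Hp), the plasma protein that binds free hemoglobin, rose by 1.81 ± 0.13 (SE, n = 4 per group; limma adjusted p = 1.16e-06) between the doses, or by 0.85 with normexp, where it was not called (limma adjusted p = 0.0638).

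Hmox1 stood at 2.51, 2.89 and 3.06 on arrays b, c and d at 50 µM, its spot on array a being an outlier, and at 3.73, 3.32, 3.76 and 3.75 at 200 µM. The groups did not overlap, and the step between them was 0.82 ± 0.18 (limma adjusted p = 0.017), a 1.76-fold difference that passed the adjusted p but not the 2-fold criterion. With the replicate letter as a block the Hmox1 step was 0.81 and its limma adjusted p was 0.0975, and from the red channel alone the step was 0.18 (limma adjusted p = 0.973). Tfrc, which takes up transferrin-bound iron, moved the other way, with ratios of -3.37, -3.09, -3.32 and -3.34 at 50 µM and -4.24, -4.13, -3.81 and -3.88 at 200 µM. Its 8 arrays did not overlap either, and the step was -0.74 ± 0.10 (limma adjusted p = 0.000306). With the normexp correction the Tfrc step turned to 0.80 (limma adjusted p = 0.271), and the spot was well above background in red on only 3 of the 4 arrays at 200 µM, so the direction of the step between the doses depended on the background correction. The fall at 50 µM against the control, -3.32 ± 0.10 (limma adjusted p = 1.2e-10), was -2.32 with normexp. A second, dimmer Tfrc probe had a fall of -1.47 at 50 µM that was not called. Its step between the doses was -0.90 (limma adjusted p = 0.374 over all kept probes).

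Of 8 measured heme synthesis genes, 1 passed an adjusted p of 0.05 at 50 µM against the control (3.52 percent of all genes). It was Alas1, the first and rate-setting enzyme of heme synthesis in non-erythroid cells, which had ratios of -0.73, -0.86, -0.83 and -0.82 at 50 µM and of -0.66, -0.75, -0.73 and -0.76 at 200 µM, beside controls from -0.10 to -0.01. It had fallen by 0.78 ± 0.13 at 50 µM against the control (limma adjusted p = 0.00379), and the difference between the doses was 0.09 with a 95 percent interval from -0.19 to 0.37. Alas1 was singled out after its values were seen. All 8 had intervals within 1.5-fold either way between the doses, as had 81.4 percent of all genes. The ferritin heavy chain Fth1 likewise moved little between the doses (0.07, interval -0.10 to 0.25, n = 3 per dose) after a rise of 0.39 at 50 µM (limma adjusted p = 0.0128).

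**Figure D1:**
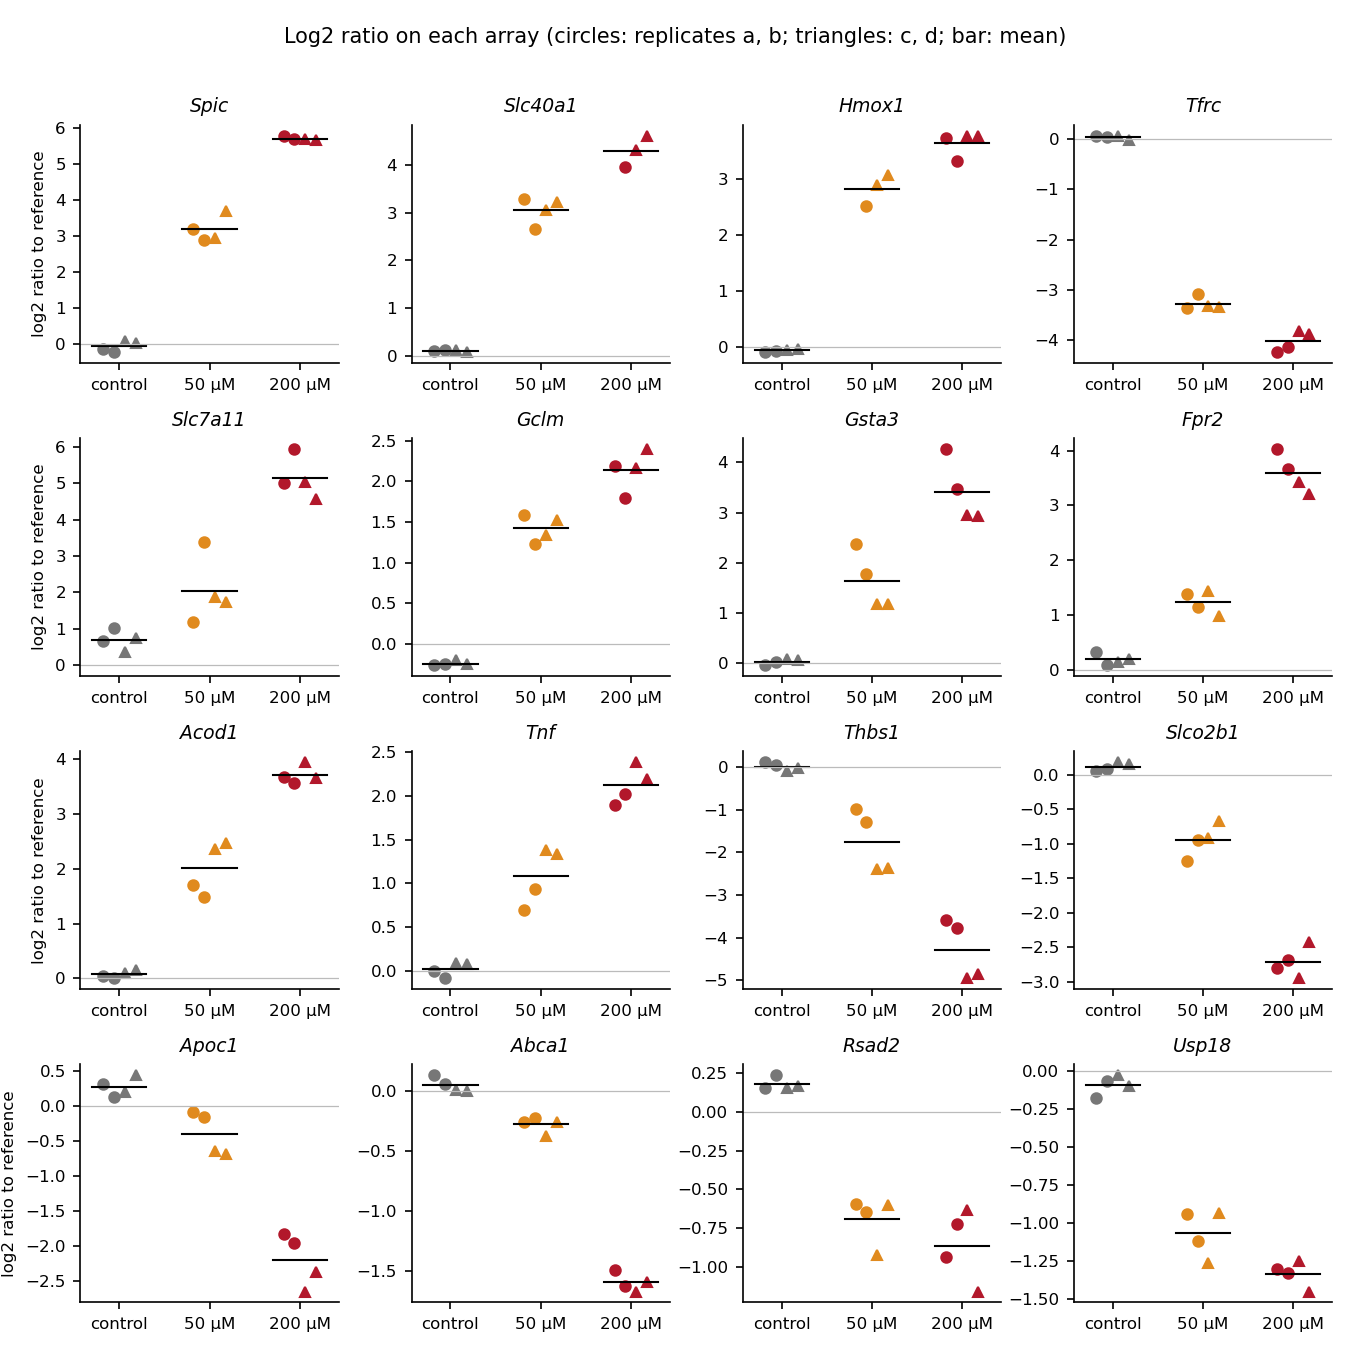
Log2 ratio to the untreated reference (y axis) of 16 genes on each array, in panels by gene, with the control, 50 µM and 200 µM groups along the x axis, circles for replicates a and b, triangles for c and d, and bars for group means. Spic, Fpr2 and Slc7a11 step up again from 50 to 200 µM, whereas Hmox1 at 50 µM lies nearer to its 200 µM level than to the control.

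Of the NRF2 targets, genes for glutathione synthesis, thioredoxin recycling and detoxification, most members rose at each step. The median over 39 members was 0.54 at 50 µM against the control and 0.50 from 50 to 200 µM, beside -0.01 for all genes in both comparisons. Of the 39, 5 were called higher between the doses and none lower, beside 0.635 percent of all genes, 24 passed an adjusted p of 0.05 upward and none downward, and 29 had groups that did not overlap (21.5 percent of all genes). At 50 µM against the control 23 passed an adjusted p of 0.05 upward and none downward, beside 2.07 percent of all genes upward and 3.52 percent in either direction. Without the arrays marked for evaluation none of the 39 passed between the doses, and from the red channel alone 9 did, although the median steps were 0.50 and 0.47. Gclm, which encodes the modifier subunit of glutamate-cysteine ligase, had ratios of 1.59, 1.23, 1.34 and 1.53 at 50 µM and 2.19, 1.79, 2.17 and 2.40 at 200 µM, without overlap, a step of 0.71 ± 0.19 (limma adjusted p = 0.029, or 0.602 from the red channel alone) that was under 2-fold. Gclc, which encodes the catalytic subunit, differed by 0.73 ± 0.24, which did not pass (limma adjusted p = 0.0851).

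The cystine importer Slc7a11, which feeds glutathione synthesis, had the largest step of all called genes by its log2 difference. Its ratios were 1.18, 3.39, 1.88 and 1.74 at 50 µM and 5.00, 5.94, 5.04 and 4.56 at 200 µM, a difference of 3.09 ± 0.61 (limma adjusted p = 0.00569). The arrays at 50 µM spread widely around array b, and the groups did not overlap. Its signal was well above background on 1 of the 4 control arrays, and with normexp the step shrank to 0.60 and lost its call. The other called members were the glutathione transferase Gsta3 (1.78 ± 0.32), the sulfiredoxin Srxn1 (1.18 ± 0.19), the peroxiredoxin Prdx1 (1.14 ± 0.15, n = 3 at 50 µM) and glutathione reductase Gsr (1.13 ± 0.18), each with a limma adjusted p of at most 0.00291. From the red channel alone Prdx1 (0.69) and Srxn1 (0.92) were not called. Thioredoxin reductase Txnrd1 rose by 0.98 ± 0.11 (limma adjusted p = 5.74e-05), just under the 2-fold line at 1.97-fold, and the quinone reductase Nqo1 by 0.90 ± 0.21 (limma adjusted p = 0.0156).

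Outside these lists, the formyl peptide receptor Fpr2, a chemotactic receptor of phagocytes, had ratios of 1.38, 1.15, 1.44 and 0.98 at 50 µM and 4.03, 3.66, 3.43 and 3.21 at 200 µM, with controls from 0.08 to 0.33. The groups stood apart, by 2.35 ± 0.15 (limma adjusted p = 3.22e-07), and the step exceeded the 1.05 ± 0.15 gained at 50 µM. With normexp the step was 0.80 and not called. Its relative Fpr1 rose by 1.61 ± 0.17 and the endothelin receptor Ednrb by 2.03 ± 0.17, both called. With normexp these steps were 0.63 and 0.59 and neither was called. The kinase gene Hunk (2.63 ± 0.31) and the monocarboxylate transporter Slc16a9 (2.37 ± 0.36) were among the largest increases, but their 50 µM signal was well above background on only 2 and 3 of 4 arrays, and with normexp their steps were 0.27 and 0.30 and not called. Ptgs2, the inducible cyclooxygenase, was not well above background on any 50 µM array. Measured means differed by 1.24 (limma adjusted p = 0.00601), the call was lost without HemeAlb200 c and with normexp (0.05), and the increase was at least 1.21-fold when set against the lowest signal above background. The same bound was at least 1.37-fold for Ankrd66 and at least 2.11-fold for the gap junction gene Gja1, the only other called genes of this kind, which lost the call with normexp too (0.06 and 0.08).

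Several called increases kept their call in all 22 refits with other background handling, centring, channel, blocks or left-out arrays. These were 8 genes, among them the lectin Clec10a (1.70 ± 0.14), the protease inhibitor Slpi (1.65 ± 0.18), the glycogen branching enzyme Gbe1 (1.25 ± 0.07), mitochondrial superoxide dismutase Sod2 (1.21 ± 0.09) and the protein C receptor Procr (1.16 ± 0.13). The others were alpha-fetoprotein (Afp, 1.21 ± 0.07) and, downward, Ctla2b and Enc1. They were singled out for this after the refits were seen. Slpi had ratios from -0.05 to 0.32 at 50 µM, next to -0.07 to 0.03 in the controls, and from 1.37 to 2.20 at 200 µM. It did not pass the test at 50 µM (0.13 ± 0.18, limma adjusted p = 0.862), and so its increase was seen at the higher dose.

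The largest decrease was in Thbs1, an extracellular matrix protein that binds several cell surface receptors. Its ratios were -0.98, -1.29, -2.40 and -2.38 at 50 µM and -3.59, -3.78, -4.96 and -4.85 at 200 µM. At each dose arrays c and d, scanned on the second day, lay lower than a and b, yet the step was nearly equal within the days, -2.55 on the first and -2.51 on the second. Over all arrays it was -2.53 ± 0.44 (limma adjusted p = 0.00229), or -1.86 and still called with normexp. The organic anion transporter Slco2b1 fell by 1.77 ± 0.14 (limma adjusted p = 3.75e-06), Ctla2b by 1.37 ± 0.08, the chemokine receptor Cxcr4 by 1.19 ± 0.18 and the transglutaminase Tgm2 by 1.03 ± 0.10. With normexp Slco2b1 (-0.68) and Cxcr4 (-0.98) were not called. The serine protease Htra4 and the prostaglandin dehydrogenase Hpgd lay slightly above the control at 50 µM and below it at 200 µM. Htra4 averaged 0.17 in controls, 0.50 at 50 µM and -0.92 at 200 µM, and Hpgd -0.04, 0.28 and -1.05. Neither change at 50 µM passed the test (limma adjusted p = 0.402 and 0.707), whereas the falls between the doses were called, at -1.42 ± 0.16 and -1.33 ± 0.27. Htra4 lost the call with normexp (-0.60), and Hpgd from the red channel alone (-1.30, limma adjusted p = 0.129).

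**Figure D2:**
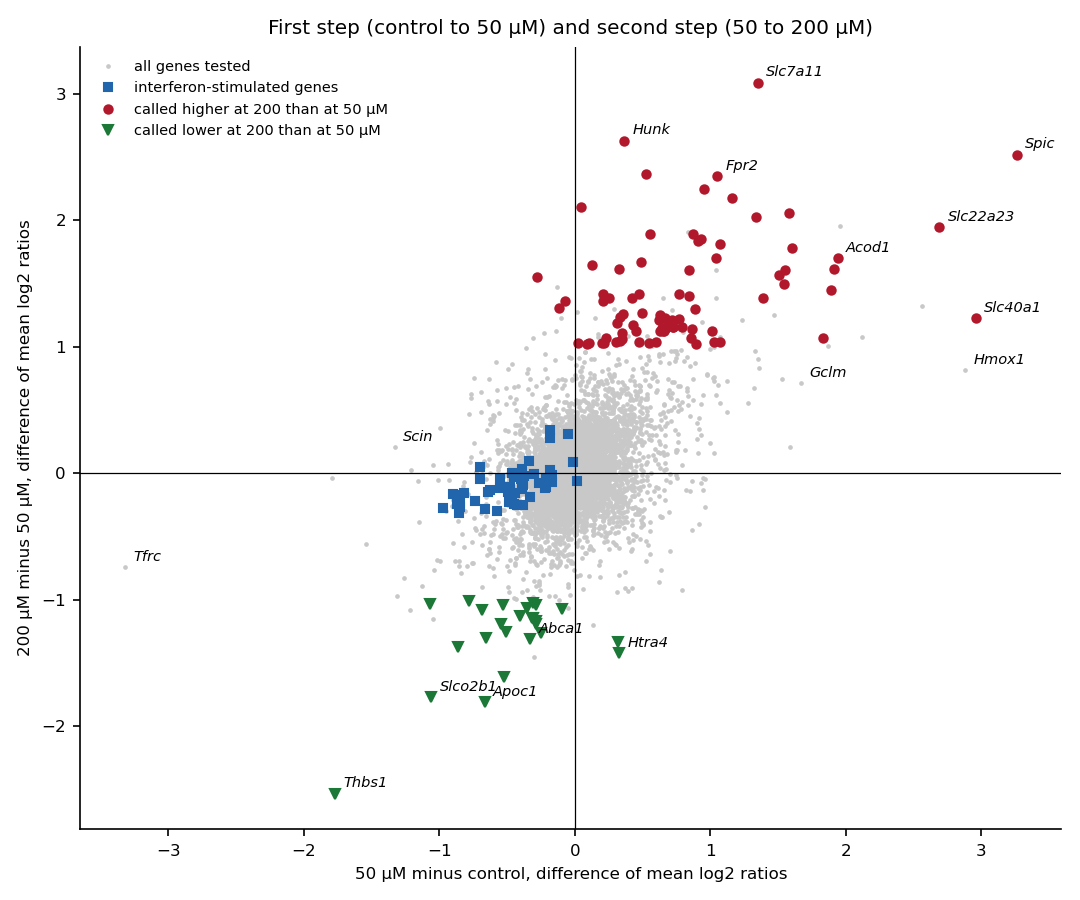
Change at 50 µM against the control (x axis, log2) and further change from 50 to 200 µM (y axis, log2), each point a gene, with the genes called between the doses as red circles (higher) and green triangles (lower), interferon-stimulated genes as blue squares and all others in grey. Spic and Slc7a11 lie high on the y axis, Thbs1 lies lowest, and the 50 µM arrays enter both axes.

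Of 26 measured genes of cholesterol synthesis, 16 passed an adjusted p of 0.05 upward between the doses and none downward, beside 4.2 and 3.41 percent of all genes. Their median step was 0.50, beside -0.01 for all genes, and their median at 50 µM was 0.27. Sqle had ratios of 0.30, 0.40, 0.52 and 0.55 at 50 µM and 1.07, 1.17, 1.65 and 1.58 at 200 µM, and the groups did not overlap. The steps of the demethylase Cyp51 (0.95), the squalene epoxidase Sqle (0.93) and the synthase Hmgcs1 (0.62 ± 0.11) passed the adjusted p but not 2-fold. The Cyp51 step was 0.34 with normexp. With normexp 7 of the 26 passed upward and the median was 0.28, from the red channel alone 10 passed, and without the arrays marked for evaluation 1 passed and it was 0.43.

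LXR targets, genes that oxysterol-activated LXR switches on to move cholesterol out of the cell, had 3 called decreases among 19 measured (0.196 percent of all genes), Abca1, Apoe and Apoc1. Their list median was -0.06, and 7 passed an adjusted p of 0.05 downward and none upward, beside 3.41 and 4.2 percent of all genes (4 downward with normexp, 1 without the arrays marked for evaluation). The cholesterol exporter Abca1 had ratios of -0.26, -0.22, -0.37 and -0.26 at 50 µM and -1.49, -1.62, -1.67 and -1.59 at 200 µM. The groups were far apart, by -1.31 ± 0.19 (limma adjusted p = 0.000436), while the change at 50 µM did not pass (-0.33 ± 0.19, limma adjusted p = 0.492). Apoe fell by 1.14 ± 0.13 and Apoc1, which encodes another apolipoprotein, by 1.81 ± 0.20 (-0.41 with normexp, not called), and Abcg1 by 0.97 ± 0.15, just under 2-fold. The LXR-regulated Srebf1 differed by 0.24 ± 0.09 between the doses, which did not pass (limma adjusted p = 0.129).

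Of 29 measured cytokines and mediators, 4 were called higher between the doses (Acod1, Saa3, Ptgs2 and Tnf) and none lower, beside 0.635 and 0.196 percent of all genes, and the list median was 0.08. Without HemeAlb200 c or without background subtraction 2 were called, and with normexp 1, as without the marked arrays. Acod1, which makes itaconate, had ratios of 1.71, 1.48, 2.37 and 2.48 at 50 µM and 3.68, 3.56, 3.95 and 3.66 at 200 µM, a step of 1.70 ± 0.18 (limma adjusted p = 5.74e-05, or 0.0811 from the red channel alone). Tnf, the tumor necrosis factor gene, had ratios of 0.70, 0.94, 1.38 and 1.34 at 50 µM and 1.90, 2.03, 2.39 and 2.20 at 200 µM. The 8 Tnf arrays did not overlap, and the step of 1.04 ± 0.14 (limma adjusted p = 0.00021) sat just above 2-fold, so that it lost the call with normexp (0.46) and without background subtraction (0.96), and without HemeAlb50 a or b or HemeAlb200 c. The acute phase gene Saa3 rose by 1.36 ± 0.29 (limma adjusted p = 0.0107; 0.50 with normexp, not called), and the fatty acid receptor Gpr84, no member of the list, by 1.57 ± 0.18. Il1b differed by -0.0018 ± 0.11 between the doses (limma adjusted p = 0.998), with an interval from -0.24 to 0.23.

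Among 22 chemokines, 1 was called (0.831 percent of all genes), Ccl5 (1.03 ± 0.15, limma adjusted p = 0.00074), which stood between -0.07 and 0.20 at 50 µM and between 0.68 and 1.58 at 200 µM. Ccl5 lost its call with normexp (0.93) and without HemeAlb50 a or b or HemeAlb200 c or d. The neutrophil chemokines Cxcl1, Cxcl2 and Cxcl3 had differences of 1.25 ± 0.45, 1.39 ± 0.63 and 1.96 ± 0.57 that did not pass (limma adjusted p = 0.121, 0.234 and 0.0504), with overlapping groups. Arrays c and d stood above a and b in all 3 genes at 50 µM. With the replicate letter as a block, all 3 were called, at limma adjusted p = 0.00489, 0.00169 and 0.0189, and the early response factor Fosl1 (1.14) at 0.00777. With normexp the chemokine differences were 0.02, 0.06 and 0.22. The NF-kB pathway and feedback genes had a median step of 0.23, with 10 of 34 passing an adjusted p of 0.05 upward and none downward, beside 4.2 and 3.41 percent of all genes, and none called. With normexp 4 passed upward and the median was 0.09, from the red channel alone 5 passed, and without the marked arrays none did. The largest rise in this list was that of Tnfaip3, at 0.79, followed by Traf1, an adaptor of tumor necrosis factor receptors, at 0.76. Vcam1 differed by -0.93, which did not pass.

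**Figure D3:**
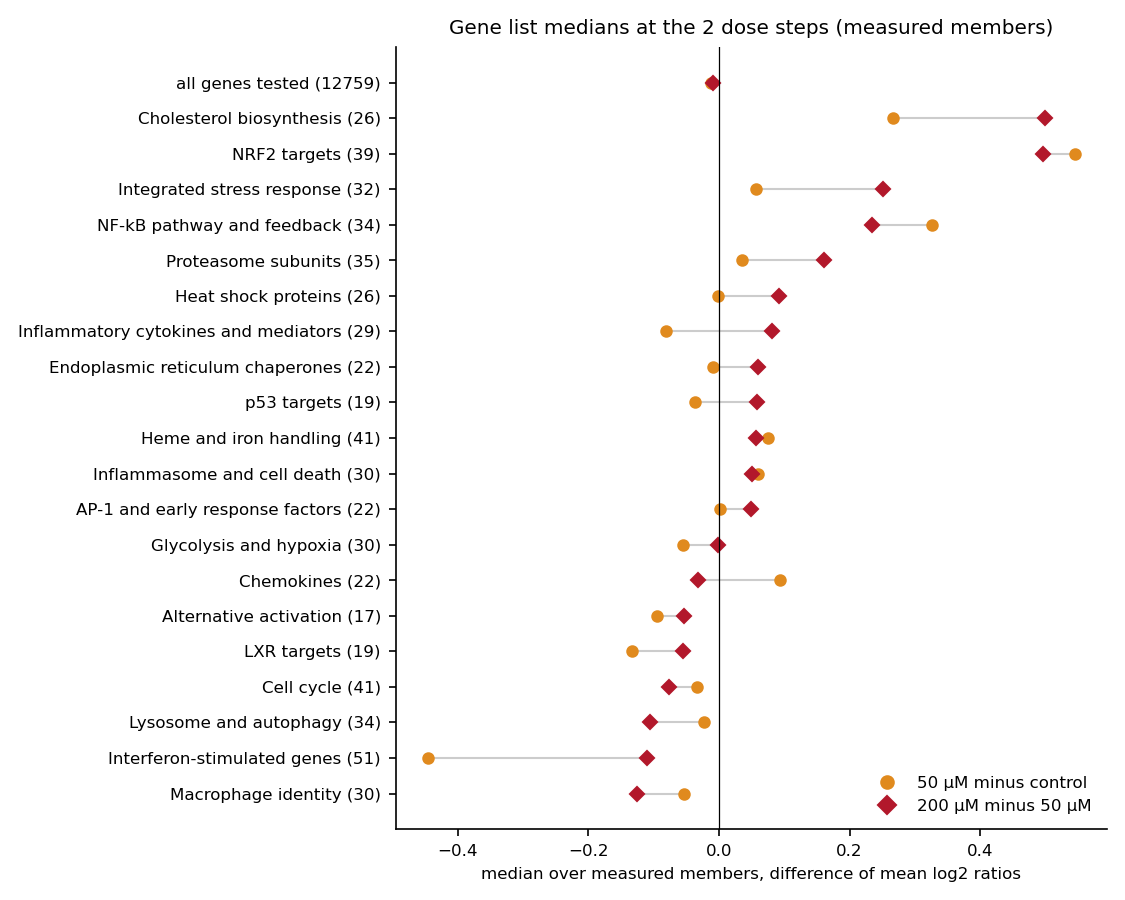
Median log2 change of the genes of 20 lists with at least 15 measured members (rows), at 50 µM against the control and from 50 to 200 µM (orange circles and red diamonds). NRF2 targets and cholesterol synthesis lie to the right in both steps, and interferon-stimulated genes lie to the left at 50 µM (-0.45) and near 0 between the doses (-0.11).

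Most interferon-stimulated genes, antiviral effectors such as Ifit2, Rsad2 and Usp18, were lower at 50 µM, and between the doses they differed little. Of 51 measured, all 51 were well above background on all 12 arrays, 35 passed an adjusted p of 0.05 downward at 50 µM (1.45 percent of all genes) and none upward, and the median was -0.45. Between the doses 4 passed an adjusted p of 0.05 downward and 2 upward, beside 3.41 and 4.2 percent of all genes. The median step was -0.11, no member was called, and 47 (92.2 percent) had a 95 percent interval within 1.5-fold either way, beside 81.4 percent of all genes. Both held for 34 members, beside 1.88 percent of all genes. This pair of criteria was chosen after values were seen. Rsad2, which encodes viperin, had ratios of -0.60, -0.65, -0.93 and -0.60 at 50 µM and of -0.94, -0.72, -0.63 and -1.16 at 200 µM, with controls from 0.15 to 0.24. The doses overlapped and both lay below the controls, with a fall of 0.87 ± 0.10 at 50 µM (limma adjusted p = 0.000151) and a step of -0.17 ± 0.10 (limma adjusted p = 0.41) after it. Usp18, which removes ISG15 from proteins, was lower by 0.97 ± 0.11 at 50 µM and differed by -0.27 ± 0.11 between the doses (limma adjusted p = 0.187). From the red channel alone, without the paired reference, 4 of the 51 passed at 50 µM. The refit without the arrays marked for evaluation kept only control b, and its median at 50 µM was -0.46. In the 21 refits that include the control, the median at 50 µM lay between -0.47 and -0.40. Because the control stood at 0 h, this fall cannot be told apart from time in culture.

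How much of the 200 µM change was present at 50 µM was expressed as a share, the log2 change at 50 µM over that at 200 µM, both against the same control arrays, with a 95 percent Fieller interval. At 200 µM against the control 386 genes were called (3.03 percent of those tested), 261 higher (2.05 percent) and 125 lower (0.98 percent), and their median share was 43 percent. The interval lay wholly above 50 percent for 20 genes (5.18 percent) and wholly below it for 74 (19.2 percent), and it spanned 50 percent for the other 292. This criterion too was chosen after values were seen. The 20 were 10 that rose and 10 that fell. The median share depends on the dose at which genes are chosen. Among genes called at 50 µM against the control it was 57.4 percent for those that rose and 58.7 percent for those that fell.

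Of the 20 genes above 50 percent, 3 were in the heme and iron list and 6 in the list of interferon-stimulated genes. Hmox1 had a share of 77.9 percent (interval 68.2 to 88.3), Slc40a1 70.6 (57.6 to 84.9) and Gclm 70 (55.5 to 85.6). Tfrc had 81.8 (77 to 86.8), but with normexp, where its step turned, its change at 50 µM was 153 percent of that at 200 µM. With normexp 8 of the 20 were no longer called at 200 µM, and 7 had shares over 100 percent, among them Ear2 (131) and Zc3h12a (184), whose steps between the doses also turned (-0.14 and -0.20). The listed interferon-stimulated genes were Ifit2, Ifit3, Oasl2, Rsad2, Rtp4 and Usp18, with Ifit2 at 84.7 (61.1 to 114), and their relative Ifit3b stood at 81.1 (64.9 to 99.5). The other members were Pir, an iron-binding nuclear protein, the glutathione transferase Mgst2, the sorting receptor Sort1, the Toll-like receptor Tlr2, the NF-kB subunit Relb, the RNase Zc3h12a, Ear2, Dusp5 and Scin. Tlr2 had ratios of 0.98, 0.70, 0.79 and 0.89 at 50 µM and 1.01, 0.85, 1.08 and 1.05 at 200 µM, and these overlapped, with a share of 84.9 percent (64.2 to 110).

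Below 50 percent lay 47 genes that rose and 27 that fell, among them Fpr2 (31 percent, interval 22.6 to 39), Hp (37.1, 28.6 to 45.3), complement C3 (24.7, 17.7 to 31.4) and Slpi (7.26, -16 to 26.4). The 5 LXR targets called at 200 µM had shares from 16.4 to 27 percent, and 4 of them lay below 50 percent over their whole interval. The 7 interferon-stimulated genes called at 200 µM had shares from 73.4 to 84.7 percent. For Spic the share was 56.4 percent with an interval of 49.7 to 63.1, which spans 50 percent.

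**Figure D4:**
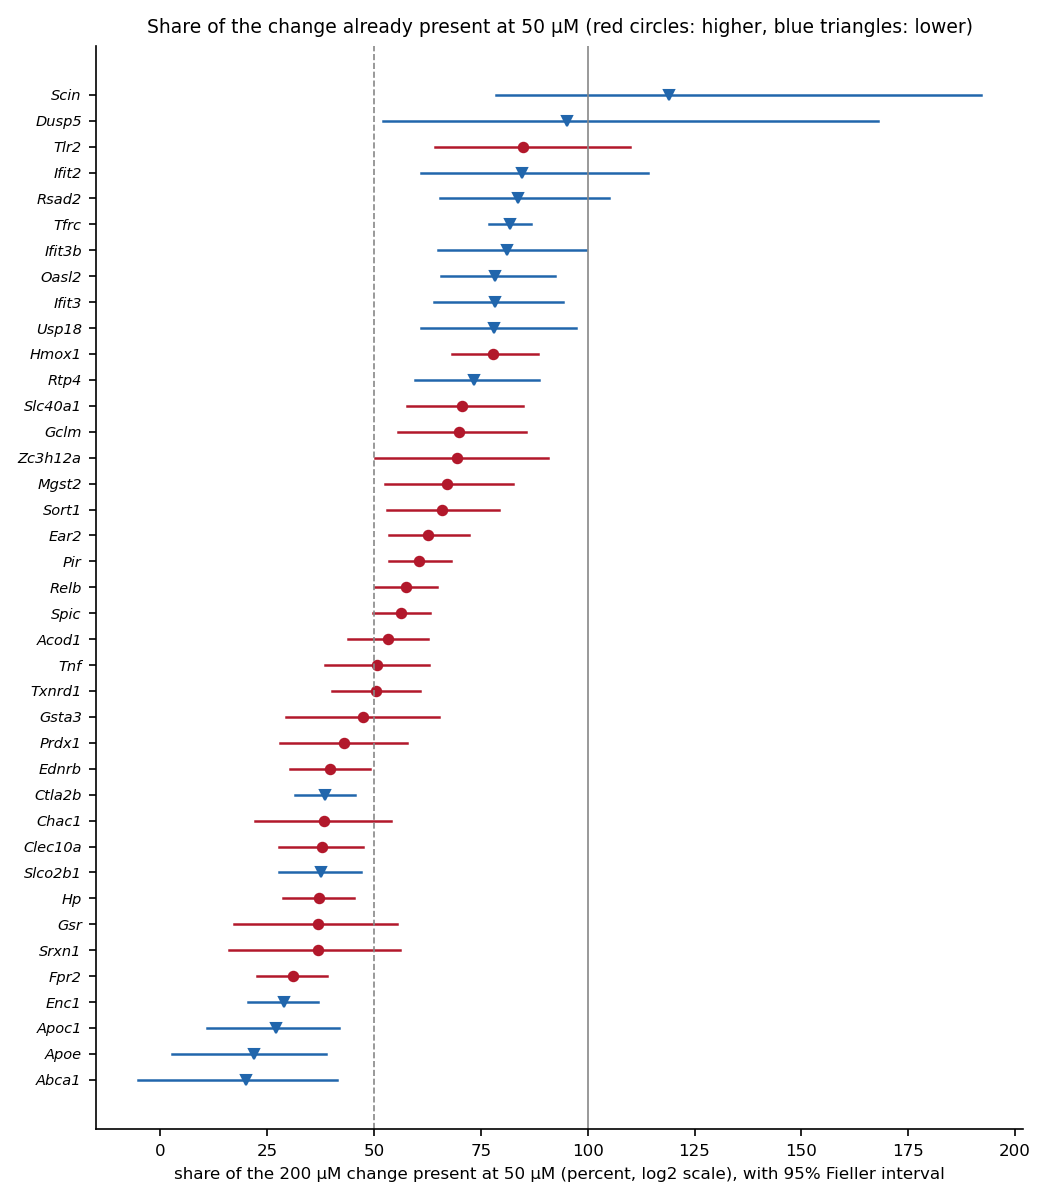
Share of the 200 µM change that was present at 50 µM (x axis, percent of the log2 change), for 39 genes (rows), with 95 percent Fieller intervals as bars, red circles for genes that rose, blue triangles for genes that fell, and lines at 50 and 100 percent. Hmox1 and the interferon-stimulated genes lie right of the 50 percent line, as does Tfrc, whose share was 153 percent with normexp, and Fpr2, Hp and Abca1 left of it.

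A plateau in the strict sense could be shown for few genes. Of the 37 genes that had risen at 50 µM against the control (0.29 percent of those tested), 19 were called higher again at 200 µM. An adjusted p of 0.05 was passed upward by 30, and the median further step was 1.07. Of all genes 0.635 percent were called higher and 4.2 percent passed upward. The 50 µM arrays enter both the choice of these genes and the further step. Of the 10 that had fallen (0.0784 percent), 3 were called lower again, beside 0.196 percent of all genes, and the median further step was -0.81. No gene called at 50 µM was called back toward the control. A 95 percent interval within 1.5-fold either way, after a call at 50 µM, was found for 1 gene (0.00784 percent), Dusp5, a phosphatase of ERK kinases. Dusp5 had ratios of -1.46, -0.79, -0.38 and -0.86 at 50 µM and -1.64, -0.68, -0.78 and -0.59 at 200 µM, fully overlapping, with a step of -0.05 ± 0.25, but it was well above background on 1 of 4 arrays at 200 µM and did not meet the criterion with normexp. With the replicate letter as a block, Dusp5 and the actin-severing protein Scin met the criterion. Scin differed by 0.21 ± 0.23, with ratios from -1.86 to -0.86 at 50 µM and from -1.45 to -0.60 at 200 µM. With the block, 44 genes had risen at 50 µM, 25 of them called higher again, and 10 had fallen, 3 of them called lower again.

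Among the genes that mark macrophages, more passed the test downward than upward between the doses. Of 30 measured, 1 was called, the scavenger receptor Marco, higher by 1.11 ± 0.29 (limma adjusted p = 0.032), with ratios from 0.22 to 0.40 at 50 µM and from 1.27 to 1.47 at 200 µM. Marco lost its call when any 1 of the 8 heme-albumin arrays was left out. The call was also lost with normexp, from the red channel alone, in the unmoderated model and without the arrays marked for evaluation. The Marco difference was at least 0.965 in every refit. An adjusted p of 0.05 was passed downward by 9 (3.41 percent of all genes) and upward by 1 (4.2 percent), and 21 had intervals within 1.5-fold. Downward, 3 passed on scan day 1, 2 from the red channel alone and 1 without the arrays marked for evaluation, with medians of -0.10 and -0.18 beside -0.13. The largest of the decreases was the immunoglobulin G receptor Fcgr1, which fell by 0.90 ± 0.06 (limma adjusted p = 6.88e-07). The efferocytosis receptor Mertk fell by 0.80 ± 0.18, the transcription factor Maf by 0.69, and the complement genes C1qa, C1qb and C1qc by 0.33 to 0.41. Markers of other cells had 2 calls, the endothelial adhesion gene Esam (1.62 ± 0.34) and the growth factor receptor Pdgfrb (1.36 ± 0.39, limma adjusted p = 0.0457), which lost its call without control b or c, HemeAlb50 a, b or d, or HemeAlb200 b, c or d, and with normexp (0.02), where Esam (0.95) lost it too, while the endothelial genes Cdh5 and Pecam1 and the stromal genes Col1a2 and Dcn were not called. Of the 6 stromal markers 2 passed an adjusted p of 0.05 upward and none downward, beside 4.2 and 3.41 percent of all genes. The stromal gene Acta2 differed by 0.50, or 0.0056 with normexp, and was not called. The summed signal of 6 endothelial markers ran from 4550 to 7350 at 50 µM and from 5000 to 8010 at 200 µM, and that of 6 stromal markers from 32400 to 39900 and from 32400 to 48400. The part of other cells in these differences was not tested.

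In the integrated stress response, the program of ATF4, 2 of 32 were called (0.635 percent of all genes higher), the glutathione-degrading enzyme Chac1 (1.16 ± 0.16, or 0.49 and not called with normexp) and Slc7a11, which is also in the NRF2 list. An adjusted p of 0.05 was passed upward by 11 of the 32 and downward by 1, beside 4.2 and 3.41 percent of all genes. Upward, 7 passed without HemeAlb50 a or c, or HemeAlb200 c or d, 5 with normexp, 2 on scan day 1, 1 from the red channel alone and none without the marked arrays. Among 19 p53 targets none was called, and 5 passed upward and 1 downward (3 upward with normexp, from the red channel alone, on scan day 1 or without HemeAlb50 c, and 1 without the marked arrays), beside the same shares of all genes, with the death receptor Fas at 0.95 ± 0.14 and the stress cytokine Gdf15 at 0.90 ± 0.11 between the doses. Gdf15 had ratios from 0.09 to 0.15 at 50 µM and from 0.81 to 1.14 at 200 µM. Proteasome subunits had a median step of 0.16, and 5 of 35 passed upward, beside 4.2 percent of all genes. That count was 3 with the replicate block, with normexp, on scan day 1 or without HemeAlb50 a, b or c or HemeAlb200 a or c, 2 without HemeAlb200 d, none from the red channel alone or without the marked arrays, 8 on scan day 2 and 15 with the 8 heme-albumin arrays alone. Of 26 heat shock proteins 1 passed, Hspb1 (0.55, or 0.04 with normexp). Of 41 cell cycle genes and 14 housekeeping genes none passed limma's adjusted p, 1 and 3 had an unadjusted p below 0.05, and 0 and 1 passed in the unmoderated model. All 14 housekeeping genes had intervals within 1.5-fold.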

How the data were processed

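RNA of 16 cultures, labelled as 4 independent biological replicates of each condition, was hybridised to 2-colour Agilent 4x44K arrays, 1 array per sample. The deposited log10 ratios of red (Cy5, sample) over green (Cy3, untreated reference) were background-subtracted and dye-normalised (linear and lowess) by Agilent Feature Extraction, version 10.7.3.1, as the headers of the deposited files state. The deposited intensity values of both colours, and the flags for background, saturation and outlier spots, come from the same files, per the file headers. Per the labels, the authors ran analysis of variance on these ratios in JMP Genomics and applied a 2-fold filter.

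Ratios were multiplied to log2, outlier spots (188 to 690 per array) and control spots left out, and the 43020 other spots averaged to 39429 probes. Probes whose red signal was well above background on every array of 1 or more groups were kept (21458), named through accessions in a RefSeq table of GRCm38.p6, and reduced to the brightest probe per gene (12759 genes, of which 3304 had several probes and none opposite calls). The precision is limited by 4 arrays per group, and saturated spots numbered 0. Limma 3.58.1 in R 4.3.3 was fitted to all 16 arrays with a mean per group and no block. The packages pandas 2.3.3, matplotlib 3.10.9 and data.table (1.17.8) were also used. The code was tested on simulated data with known changes. Each group kept 1 slide position, so position and group cannot be told apart.

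Slide and replicate letter coincide, and the scan days split the letters a and b from c and d. Deviations from the group means correlated between arrays of the same letter, from 0.364 to 0.499 between the doses and from 0.164 to 0.33 with the controls. Control d correlated more with HemeAlb200 c (0.199) than with HemeAlb200 d (0.168). The sample titles also carry a shared tag per letter. Since letter and slide coincide, paired cultures and a shared slide cannot be told apart here, and the main p-values are from the fit without a block. A block by letter is given beside a result where it changed a call.

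The genes and lists were chosen with earlier results of these data known. Genes are named by a rule: a preset of 15, the 12 largest steps each way among called genes without overlap, genes near a plateau, and up to 4 members of each list. Genes outside it (Alas1, Fth1, Gclc, Gsr, the 8 called in all refits, those with a share above 50 percent, C3, Gpr84, Fpr1 and other single members of lists) were chosen after their values were seen. Some genes are not reported here.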

Additional observations from a re-analysis of the deposited data

Results flagged for a closer look

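Single arrays that stood apart from the other 3 of their group were looked for in 166 groups of 4 arrays, from 55 genes, by the gap to the nearest array over the range of the group (Dixon's test at the 95 percent level). Chance alone gives about 1 such array in 20 groups, and 9 were found. At 200 µM they were Spic on array a (5.79, beside 5.68 to 5.69), Hmox1 on array b (3.32, beside 3.73 to 3.76), Pir on array a (1.5, beside 1.35 to 1.37) and Relb on array d (1.04, beside 1.13 on the others). At 50 µM Rsad2 on array c stood at -0.925 (beside -0.648 to -0.595). In the controls they were Rsad2 on array b (0.236, beside 0.154 to 0.168), Ear2 on array a (0.108, beside 0.161 to 0.164), Rassf6 on array c (-1.04, beside -0.137 to 0.0) and Ppm1n on array c (0.988, beside 0.0 on the others).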

How the results depend on the processing

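The number of genes called between the doses was within 1.5 times of 106 in the other refits (centring, red channel, scan days, blocks, probe means, unmoderated model) but fell to 31 (22 higher, 9 lower) with normexp, 70 (53 higher) without background subtraction and 31 (20 higher, 11 lower) without the arrays marked for evaluation, and was 971 with no minimum change. The same 3 settings gave 19, 29 and 1 genes for 50 µM against the control, in place of 47, and 151, 229 and 134 for 200 µM, in place of 386. Of the 106, 103 kept their direction with normexp, the others being A330009N23Rik, Mmp25 and Rnase2b. Of 151 genes named by rule, 85 passed an adjusted p of 0.05 between the doses, and of these Tfrc alone turned round in the 22 refits (0.801 with normexp, where its red signal at 200 µM is near background on 1 array). Of the 66 that did not pass, 14 changed sign with normexp. The call was lost by 30 with normexp and by 32 without the marked arrays. Leaving out 1 array at a time gave 89 to 120 genes between the doses (66 to 92 higher, 21 to 28 lower), 38 to 47 at 50 µM and 342 to 390 at 200 µM. The count near a plateau, 1, became 0 with normexp, the red channel, a filter on all 8 heme-albumin arrays, the unmoderated model or a bound of 0.5. It became 2 with the replicate block and on scan day 1, 6 with a bound of 1 and 10 with both block and that bound. With 1 array left out it ran from 0 to 2. The replicate block gave 121 called genes between the doses, and beside the calls given for the chemokines and Fosl1 it changed none among the named genes. Of the results added after seeing the data, shares above 50 percent (20 genes) numbered 6 from the red channel, 46 on scan day 1 and 39 on scan day 2 (16 to 22 with 1 array left out). Shares below 50 percent (74) numbered 22 with normexp (61 to 91 with 1 array left out). Interferon-stimulated genes lower at 50 µM (35) numbered 4 from the red channel and 22 on scan day 2 (27 to 35 with 1 array left out). Those with the interval within 1.5-fold (47) numbered 43 to 47 with 1 array left out. The causes were not tested. Signals near background limit the log2 changes of dim genes, and the control and its dye balance rest on 4 arrays.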
